A study of Mus musculus with 9 samples.

Results

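The 10 genes described here encode fatty acid synthase (*Fasn*) and the enzymes that desaturate or lengthen its products: the stearoyl-CoA desaturases *Scd1* and *Scd2*, the front-end desaturases *Fads1* and *Fads2*, and the elongases *Elovl1*, *Elovl2*, *Elovl5*, *Elovl6* and *Elovl7*. They were taken by gene symbol from an RNA sequencing count table of 55471 genes, and all 10 were found, each as a single row. The libraries came from wild-type mouse bone marrow-derived dendritic cells (DCs), antigen-presenting cells grown from marrow with GM-CSF, and the study's methods give C57BL/6 females of 8 to 20 weeks as the source of its cultures. Of the 9 libraries, 3 were from unstimulated DCs, 3 from DCs activated with LPS (100 ng/mL), a bacterial outer membrane component sensed by TLR4, and 3 from DCs treated with IFN-β (1000 U/mL), an antiviral cytokine, all for 6 h. Neither the labels nor the methods say whether the letters A, B and C that number the libraries mark separate animals or cultures or whether animals were pooled, so p-values measure the spread between these libraries, which may be technical.

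Fatty acid synthase builds palmitate from acetyl-CoA and malonyl-CoA, with NADPH as the reductant. ELOVL6 lengthens palmitate to stearate, and the stearoyl-CoA desaturases place the first double bond, giving palmitoleate and oleate. FADS2 and FADS1 act in turn on the essential polyunsaturated fatty acids, with ELOVL5 and ELOVL2 lengthening the intermediates between and after them, while ELOVL1 makes the very long saturated and monounsaturated chains of sphingolipids. Many of these genes are known targets of the transcription factor SREBP-1 and of the oxysterol receptors LXRα and LXRβ, and in macrophages and DCs their products change membrane composition and the pool of lipid mediators.

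Each library held 33425803 to 43735199 counts, and 16260 genes passed the filter on low counts and were tested. Levels are given as CPM (counts per 1000000 counts of a library) scaled with TMM factors, which ranged from 0.783 to 0.841 for the LPS libraries and from 1.18 to 1.26 for the unstimulated ones; with scaling by library size alone, the median gene shifted by -0.58 on the log2 scale under LPS and by -0.31 under IFN-β. The 6 dendritic marker genes checked summed to 4330 to 5176 CPM in unstimulated, 6086 to 6729 CPM in LPS and 4847 to 5129 CPM in IFN-β libraries. In unstimulated libraries *Cd74* was at 2295 to 2923 CPM, *Itgax* at 1361 to 1396, *Zbtb46* at 27.8 to 36.8 and *Flt3* at 2.23 to 4.51 CPM. Under LPS 5 of the 6 were called higher and 0 lower, and under IFN-β 1 higher and 0 lower. The 5 macrophage markers summed to 1428 to 1740, 1639 to 2067 and 1962 to 2247 CPM, and under LPS 3 of them were higher and 2 lower. The 7 neutrophil and 4 mast cell markers summed to 8.98 to 23.4 CPM and 2.15 to 9.95 CPM across all libraries. *Adipoq* and *Lep*, which mark the lipogenic adipocyte, had at most 3 counts in every library, as did *Cd3e* and *Ncr1* of lymphocytes, and the summed level of 6 stimulation genes was 136 to 219 CPM in unstimulated, 14131 to 16377 CPM in LPS and 2482 to 2764 CPM in IFN-β libraries, with all 6 called higher under LPS and 5 under IFN-β. In bulk libraries of this kind fewer cells of a type and less RNA per cell cannot be told apart, and the part of the macrophage markers in the results was not tested.

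Transcripts of 9 of the 10 genes fell under both stimuli, and the single gene that rose under both was *Elovl2*. Summed over the 10 genes, expression was 1465 ± 165 CPM in unstimulated DCs (SD, n = 3; 1290 to 1619), 226 ± 12.1 CPM after LPS (217 to 240 CPM) and 626 ± 53.9 CPM after IFN-β (577 to 684 CPM), with no overlap between groups. Of all genes tested, 32.8% were called higher and 35.4% lower under LPS, and 23.6% higher and 23.3% lower under IFN-β, at an adjusted p under 0.05 in the quasi-likelihood test of edgeR, adjusted by Benjamini-Hochberg over all 16260 genes, which gives every adjusted p below. By library size alone the calls over all genes went from 5334 higher and 5750 lower to 2777 and 9906 under LPS, and from 3837 and 3794 to 2146 and 7484 under IFN-β, while each of the 10 genes kept its direction and its call in both. On the log2 scale the 10 genes had a median fold change of -3.08 after LPS and -1.34 after IFN-β, beside -0.04 and -0.02 over all genes. The libraries of the groups did not overlap for any of the 10 genes in either comparison, which was also so for 72.4% of all genes under LPS and 58.1% under IFN-β. *Elovl2* passed the filter on low counts only through the stimulated libraries, so a difference from the unstimulated ones was built into its being tested. With 3 libraries against 3, a two-sided exact permutation test cannot go below p = 0.1, and it gave 0.1 for each of the 10 genes in each comparison.

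**Figure D1:**
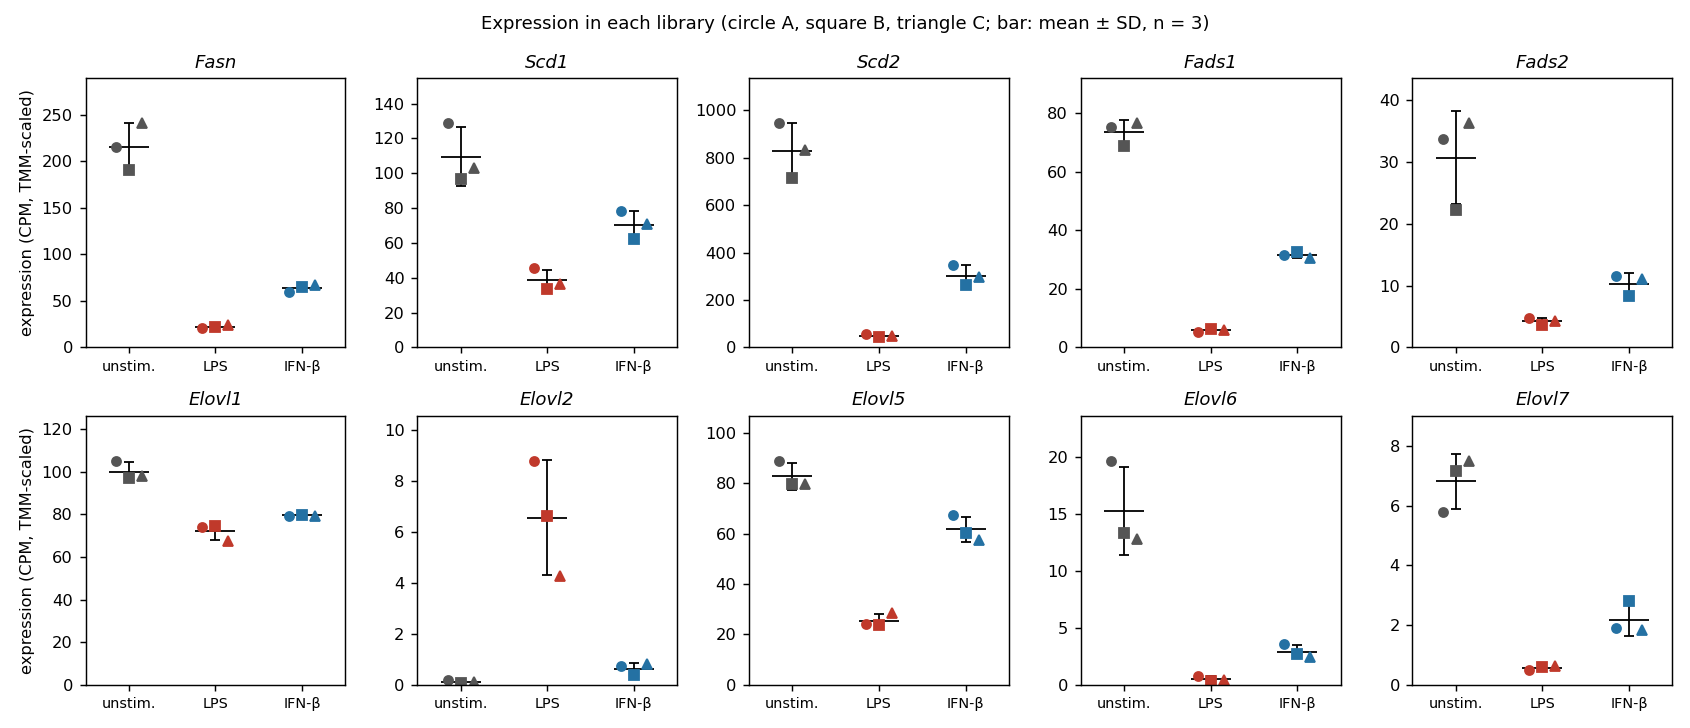
TMM-scaled CPM of each gene in each of the 9 libraries, with a separate vertical scale from 0 for each gene. Points are libraries (circle A, square B, triangle C) and bars are the mean ± SD of 3; in 9 panels the LPS libraries are the lowest and the unstimulated the highest, and in the *Elovl2* panel that order is turned round.

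RefSeq promoter windows of 300 bases, from 250 before to 50 after an annotated transcription start, were at hand for 7 of the 10 genes, as 9 windows on GRCm38.p6. *Scd1*, *Scd2* and *Fads1* had no entry. The windows of 5 genes are printed because these genes span the responses seen. They are *Fasn* at the head of the pathway, *Elovl6* with the deepest fall, *Elovl5* and *Elovl1* with the smallest falls under IFN-β, and *Elovl2*, which rose. Each is the part before the start, 5′ to 3′ on the strand of the gene, in lower case, with capitals marking a CCAAT box (CCAAT), a GC box (GGGCGG) or an E-box (CACGTG) on either strand; overlapping matches merge in the *Fasn* run CCAATTGG and the *Elovl1* run CCGCCCAAT.
*Fasn*, chr11:120824548-120824797, minus strand: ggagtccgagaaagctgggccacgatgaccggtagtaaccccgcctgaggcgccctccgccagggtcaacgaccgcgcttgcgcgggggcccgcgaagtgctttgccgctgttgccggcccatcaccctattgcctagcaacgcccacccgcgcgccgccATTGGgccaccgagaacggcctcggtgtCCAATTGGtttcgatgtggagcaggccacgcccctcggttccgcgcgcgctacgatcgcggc
*Elovl6*, chr3:129532136-129532385, plus strand: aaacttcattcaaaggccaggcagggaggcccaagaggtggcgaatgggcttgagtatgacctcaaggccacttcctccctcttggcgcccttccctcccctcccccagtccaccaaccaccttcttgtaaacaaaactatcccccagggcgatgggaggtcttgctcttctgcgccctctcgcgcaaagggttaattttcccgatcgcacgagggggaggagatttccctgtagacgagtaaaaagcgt
*Elovl5*, chr9:77917115-77917364, plus strand: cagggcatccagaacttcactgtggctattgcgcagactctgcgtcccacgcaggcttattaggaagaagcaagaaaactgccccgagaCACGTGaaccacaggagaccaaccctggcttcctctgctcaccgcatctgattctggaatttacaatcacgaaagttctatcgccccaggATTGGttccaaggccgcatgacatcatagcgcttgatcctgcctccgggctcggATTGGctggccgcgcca
*Elovl1*, chr4:118427843-118428092, plus strand: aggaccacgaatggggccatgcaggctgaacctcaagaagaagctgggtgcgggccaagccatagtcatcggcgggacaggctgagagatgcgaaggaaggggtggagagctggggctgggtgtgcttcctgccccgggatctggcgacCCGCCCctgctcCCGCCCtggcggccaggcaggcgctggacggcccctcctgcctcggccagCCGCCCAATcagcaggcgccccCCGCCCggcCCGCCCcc
*Elovl2*, chr13:41220404-41220653, minus strand: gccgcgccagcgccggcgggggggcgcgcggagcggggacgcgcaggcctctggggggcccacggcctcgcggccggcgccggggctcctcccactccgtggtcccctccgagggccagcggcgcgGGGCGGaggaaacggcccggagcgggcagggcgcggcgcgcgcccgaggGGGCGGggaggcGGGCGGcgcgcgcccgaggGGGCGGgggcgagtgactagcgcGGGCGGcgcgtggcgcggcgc

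The *Fasn* window held 3 CCAAT matches, between positions -90 and -55 from the start, and that of *Elovl5* held 2, with an E-box at -161 to -156. The printed windows of *Elovl1* and *Elovl2* held 5 GC boxes each, whereas the other *Elovl1* window held 2 and the other *Elovl2* window none. The printed *Elovl2* window was 84.7% G and C over its 300 bases and the other 76.7%, against a median of 52.7% for all 32851 windows. The *Elovl6* window held none of the motifs searched. CCAAT was in 37.4% of all windows, the GC box in 35.7% and the E-box in 7.15%. The sterol regulatory element TCACNCCAC, found in 1.24% of all windows, was in none of the 9, nor was the interferon-stimulated response element (a pair of GAAA quartets with any pair of bases between, 3.44%) or the LXR element (a direct repeat of AGGTCA with any 4 bases between, 0.0152%), which says only that these letters are not in these windows.

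*Fasn* (ENSMUSG00000025153, chr11:120805846-120824547, minus strand of GRCm38) encodes the synthase itself. It was at 216, 191 and 241 CPM in unstimulated libraries A, B and C, at 20.7, 21.5 and 23.9 CPM after LPS, and at 59.9, 64.7 and 67.1 CPM after IFN-β. The 3 groups were well apart, after LPS lowest and the IFN-β libraries nearer to LPS than to unstimulated DCs on the CPM scale. The fall was 9.81-fold under LPS (log2 fold change -3.29, SE 0.10, edgeR adjusted p = 2.7e-09) and 3.38-fold under IFN-β (-1.76, SE 0.09, edgeR adjusted p = 8.8e-07).

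*Scd2* (ENSMUSG00000025203, chr19:44293674-44306864, plus strand), the desaturase isoform prominent outside the liver, was the most abundant of the 10 before stimulation. Its level was 946, 714 and 831 CPM in unstimulated DCs, 55.5, 45.7 and 48.9 CPM after LPS, and 349.8, 262 and 297 CPM after IFN-β. Every LPS library lay far below every other library, and the IFN-β libraries lay between. *Scd2* fell 16.6-fold under LPS (log2 -4.05, SE 0.15, edgeR adjusted p = 5.7e-09) and 2.74-fold under IFN-β (log2 -1.45, SE 0.13, edgeR adjusted p = 1.3e-05).

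*Scd1* (ENSMUSG00000037071, chr19:44394455-44407879, minus strand), the main isoform of liver and fat, lies near *Scd2* on chromosome 19 and moved less. It was at 129, 97.0 and 103 CPM in unstimulated libraries, 45.4, 33.5 and 36.6 CPM in LPS libraries, and 78.3, 62.3 and 71.1 CPM in IFN-β libraries. Library A was the highest in each of the 3 groups. The fall was 2.85-fold under LPS (log2 -1.51, SE 0.14, edgeR adjusted p = 3.2e-06) and 1.55-fold under IFN-β (log2 -0.63, SE 0.14, edgeR adjusted p = 0.00307).

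The unequal fall changed the make-up of the stearoyl-CoA desaturase transcripts. Per kilobase of exon, *Scd2* made up 87.2% ± 0.588 of the pair in unstimulated DCs (SD, n = 3), 53.9% ± 1.45 after LPS and 79.3% ± 0.608 after IFN-β. The shares of the 3 groups did not overlap, and a share within a library does not depend on how libraries are scaled. Exact permutation tests of these shares gave p = 0.1, the smallest possible, and an adjusted p of 0.111 over the 21 tests of family shares.

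*Fads2* and *Fads1*, neighbours in a cluster of desaturase genes on chromosome 19, carry out the first and the last desaturation on the way from linoleate to arachidonate. *Fads1* (ENSMUSG00000010663, chr19:10182888-10196877, plus strand) was at 75.4, 68.9 and 76.6 CPM in unstimulated DCs, 5.31, 6.47 and 6.05 CPM after LPS, and 31.5, 32.8 and 30.6 CPM after IFN-β. Its replicates were tight, and it fell 12.4-fold under LPS (log2 -3.63, SE 0.09, edgeR adjusted p = 9.7e-10) and 2.33-fold under IFN-β (log2 -1.22, SE 0.08, edgeR adjusted p = 1.6e-06).

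*Fads2* (ENSMUSG00000024665, chr19:10062765-10101746, minus strand) was less abundant and more variable, at 33.7, 22.2 and 36.3 CPM in unstimulated, 4.78, 3.67 and 4.30 CPM in LPS, and 11.5, 8.36 and 11.1 CPM in IFN-β libraries. Library B was the lowest of each group, and the groups still did not overlap. It fell 7.24-fold under LPS (log2 -2.86, SE 0.20, edgeR adjusted p = 4.5e-07) and 2.97-fold under IFN-β (log2 -1.57, SE 0.19, edgeR adjusted p = 7.4e-05). *Fads1* made up 62.6% ± 4.80 of the pair per kilobase in unstimulated DCs, 49.0% ± 5.74 after LPS and 67.8% ± 4.36 after IFN-β (SD, n = 3). With the length of the longest transcript in place of the union of exons, these shares were 68.9%, 56.0% and 73.7%. The libraries after LPS lay below the others (exact p = 0.1 in each comparison), whereas unstimulated and IFN-β libraries overlapped (difference 5.26 percentage points, exact permutation p = 0.3, adjusted 0.315).

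*Elovl6* (ENSMUSG00000041220, chr3:129532355-129638495, plus strand), the elongase that turns palmitate into stearate, had the largest proportional fall of the 10 under both stimuli. Its counts were 777, 593 and 568 in unstimulated libraries, 22, 12 and 13 after LPS, and 152, 102 and 89 after IFN-β. These counts correspond to 19.7, 13.3 and 12.8 CPM, to 0.778, 0.350 and 0.399 CPM, and to 3.56, 2.71 and 2.46 CPM. Library A was the highest in each group, and each stimulated library was below every unstimulated one. Ranked among the 16260 tested genes from the lowest log2 fold change, *Elovl6* was at place 28 under LPS (30.5-fold lower, SE of the log2 fold change 0.29) and at place 20 under IFN-β (5.22-fold lower, SE 0.23).

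*Elovl5* (ENSMUSG00000032349, chr9:77917364-77984519, plus strand), which lengthens the polyunsaturated intermediates between the front-end desaturases, was at 89.1, 79.7 and 79.7 CPM in unstimulated DCs, 24.1, 23.8 and 28.7 CPM after LPS, and 67.3, 60.3 and 57.7 CPM after IFN-β. The IFN-β libraries lay just under the unstimulated ones and the LPS libraries far below both. The fall was 3.24-fold under LPS (log2 -1.70, SE 0.09, edgeR adjusted p = 7.1e-08) and 1.34-fold under IFN-β (log2 -0.42, SE 0.09, edgeR adjusted p = 0.00294).

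*Elovl7* (ENSMUSG00000021696, chr13:108214404-108285683, plus strand), another elongase of long-chain acyl-CoAs, was a low transcript, at 5.78, 7.16 and 7.51 CPM in unstimulated, 0.495, 0.583 and 0.614 CPM in LPS, and 1.90, 2.81 and 1.82 CPM in IFN-β libraries. The LPS values rest on 14, 20 and 20 counts. It fell 12.0-fold under LPS (log2 -3.58, SE 0.22, edgeR adjusted p = 1.6e-07) and 3.13-fold under IFN-β (log2 -1.65, SE 0.18, edgeR adjusted p = 5.2e-05).

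*Elovl1* (ENSMUSG00000006390, chr4:118428093-118432953, plus strand), which makes very long saturated chains, changed least. Its level was 105, 96.9 and 98.1 CPM in unstimulated DCs, 73.8, 74.5 and 67.5 CPM after LPS, and 79.1, 79.9 and 79.5 CPM after IFN-β. Both stimulated groups lay below the unstimulated one without overlap, by 1.39-fold under LPS (log2 -0.48, SE 0.06, edgeR adjusted p = 4.5e-05) and by 1.26-fold under IFN-β (log2 -0.33, SE 0.06, edgeR adjusted p = 0.0013).

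*Elovl2* (ENSMUSG00000021364, chr13:41182381-41220405, minus strand), which lengthens the longest polyunsaturated fatty acids on the way to docosahexaenoate, moved the other way. It had 7, 3 and 5 counts in the unstimulated libraries, 249, 228 and 139 after LPS, and 32, 14 and 29 after IFN-β. These counts are 0.177, 0.0674 and 0.113 CPM, then 8.81, 6.64 and 4.27 CPM, then 0.749, 0.372 and 0.801 CPM. Unstimulated DCs thus held the transcript at the edge of detection, and unstimulated library B was at 3 counts. From the pooled counts, the level after LPS was 55.4 times the unstimulated level (95% exact counting interval 33.3 to 99.6) and that after IFN-β 5.50 times (3.13 to 10.3); these intervals cover counting error only. The log2 fold change was 5.77 under LPS (SE 0.42, edgeR adjusted p = 5.4e-07) and 2.42 under IFN-β (SE 0.51, edgeR adjusted p = 0.00288), which put it at place 114 and place 299 from the top of the tested genes. Because *Elovl2* passed the filter only through its stimulated libraries, these p-values, intervals and places describe the rise and are no separate support for it.

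**Figure D2:**
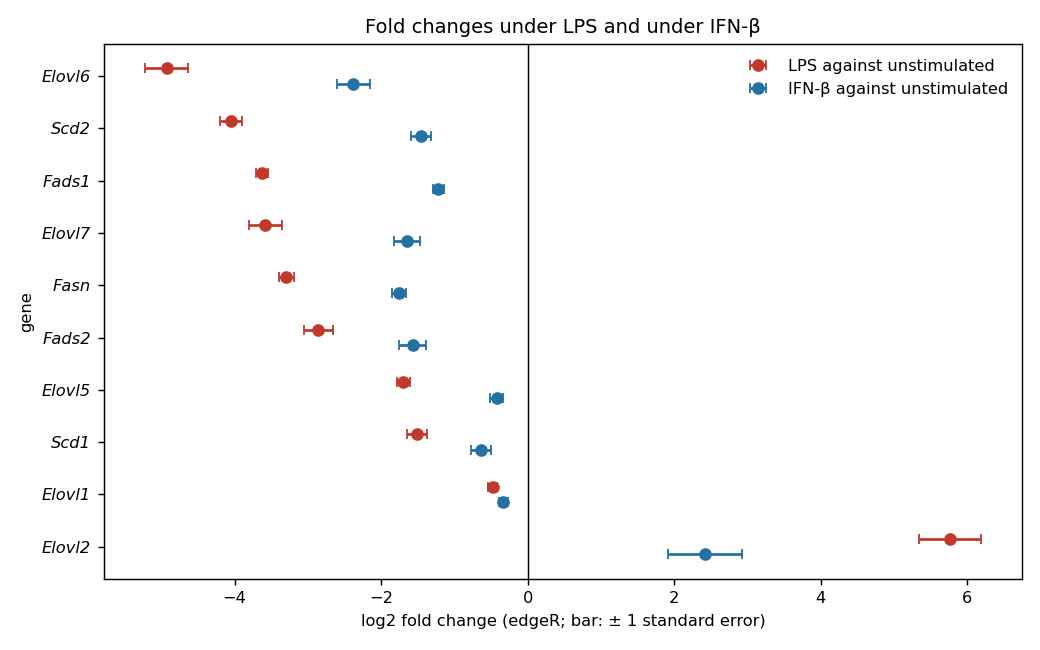
Log2 fold changes of the 10 genes against unstimulated DCs, with bars of 1 standard error derived from the edgeR test, for LPS (red) and IFN-β (blue). From *Elovl6* (-4.93 and -2.38) to *Elovl1* (-0.48 and -0.33) both points lie left of 0, *Elovl2* lies right of it (5.77 and 2.42), and the LPS point is farther from 0 in every row.

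The direct comparison of the stimulated groups asked whether IFN-β and LPS left these genes at different levels; both are set against the same unstimulated libraries above, so the contrast between them was tested by itself. Of the 10 genes, 8 were higher after IFN-β than after LPS, where 25.8% of all genes were called higher and 23.3% lower, and their median log2 difference (all 10) was 1.41 beside 0.02 over all genes. The libraries of the 2 groups did not overlap for any of the 10, as for 56.8% of all genes. The largest differences among these 8 were those of *Scd2* (6.06-fold, log2 2.60, SE 0.14, edgeR adjusted p = 1.8e-07), *Elovl6* (log2 2.55, SE 0.31, edgeR adjusted p = 6.9e-05) and *Fads1* (log2 2.41, SE 0.09, edgeR adjusted p = 2.0e-08). *Elovl7*, *Fasn*, *Fads2*, *Elovl5* and *Scd1* were higher after IFN-β by 1.94, 1.54, 1.29, 1.27 and 0.88 on the log2 scale. *Elovl2* was lower after IFN-β, with a log2 difference of -3.35 (SE 0.33, edgeR adjusted p = 1.5e-05) and a ratio of pooled counts of 0.0994 (95% exact counting interval 0.0771 to 0.126).

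*Elovl1* was the gene for which the 2 stimuli did not differ past the threshold. Its log2 difference was 0.14 (edgeR adjusted p = 0.0767). The 95% interval of 0.02 to 0.26 lies wholly on the positive side, but unlike the p-value it is not adjusted over all genes. A difference of that size is therefore not excluded. With a replicate block for the letters the estimate was again 0.14 and the adjusted p was 0.0384. Upper-quartile factors gave 0.16 (edgeR adjusted p = 0.0383), and scaling by library size alone gave 0.42 (edgeR adjusted p = 1.4e-04), of which 0.27 is the shift of the median gene.

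Compared with each other per kilobase of exon, the 10 genes spanned a wide range before stimulation. *Scd2* stood first at 152 CPM per kilobase, *Elovl1* followed at 36.7, and *Elovl5*, *Scd1* and *Fasn* came next at 23.5, 22.4 and 19.7 CPM per kilobase, where neighbours had overlapping libraries. *Fads1* (15.3), *Fads2* (9.32), *Elovl6* (2.37), *Elovl7* (1.70) and *Elovl2* (0.0301 CPM per kilobase) followed without overlap between neighbours. With LPS the order changed: *Elovl1* led at 26.4 CPM per kilobase, *Scd2*, *Scd1* and *Elovl5* overlapped at 9.16, 7.87 and 7.25, *Fasn*, *Elovl2*, *Fads2* and *Fads1* lay between 2.01 and 1.23 with overlapping neighbours, and *Elovl7* (0.141) and *Elovl6* (0.0792 CPM per kilobase) were last. With IFN-β *Scd2* stayed first at 55.4 CPM per kilobase, ahead of *Elovl1* (29.2), *Elovl5* (17.5) and *Scd1* (14.4), and *Elovl2* stayed last at 0.162.

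Within the elongases the make-up shifted toward *Elovl1*. It made up 57.1% of elongase transcripts per kilobase in unstimulated DCs, 74.3% after LPS and 61.0% after IFN-β, while the family's summed level fell from 64.3 ± 3.56 to 35.5 ± 1.16 and 47.8 ± 1.39 CPM per kilobase (SD, n = 3). The share of *Elovl5* was 36.6% ± 0.370 in unstimulated DCs, 20.5% ± 2.92 after LPS and 36.6% ± 1.88 after IFN-β. *Elovl2* rose from 0.0461% of the family to 4.64% after LPS and 0.338% after IFN-β, and *Elovl6* went from 3.67% to 0.222% and 0.942%. Of the 15 elongase share comparisons, 14 had groups without overlap and an exact permutation p of 0.1 (0.111 adjusted over 21), and the exception was *Elovl5* under IFN-β, where the libraries overlapped (difference 0.059 percentage points, exact p = 1).

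**Figure D3:**
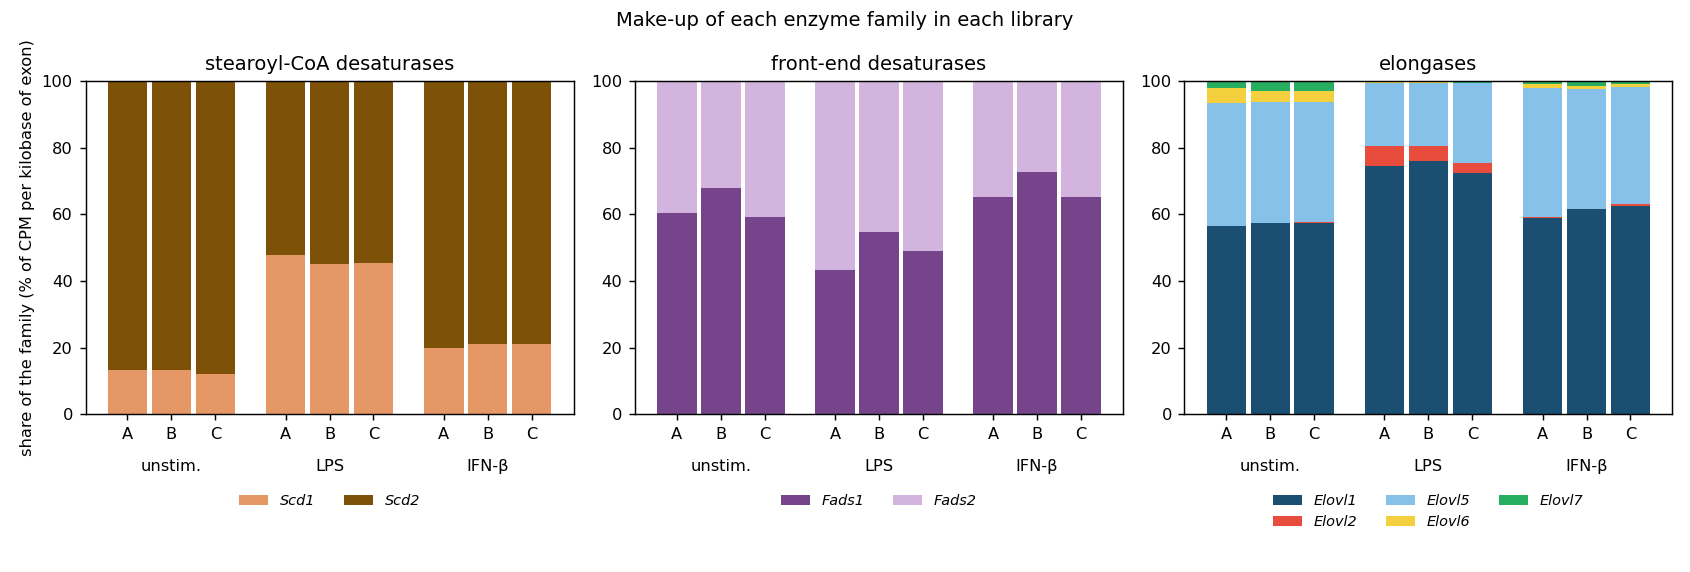
Stacked bars give each gene's share, in % of CPM per kilobase of exon, of its enzyme family in each of the 9 libraries. The *Scd2* share narrows from about 87.2% to 53.9% in the LPS bars, and in the elongase panel *Elovl1* widens and the red *Elovl2* band is visible mainly after LPS.

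Of 8 other desaturase and elongase genes, 4 were not detected above a few counts. *Elovl3* had 0 counts in every library, *Scd3* and *Elovl4* at most 1 and *Degs2* at most 5. The 4 that were tested were all lower under LPS: *Scd4* (log2 -2.96, SE 0.28), *Fads6* (-2.33, SE 0.33), *Fads3* (-1.02, SE 0.17) and the ceramide-forming *Degs1* (-0.58, SE 0.06). Under IFN-β *Scd4* passed the threshold (log2 -0.84, SE 0.22, edgeR adjusted p = 0.00946) and *Degs1* was at -0.02 (edgeR adjusted p = 0.836). With the replicate block a further gene, *Fads3*, was past it (edgeR adjusted p = 0.0246). By library size alone all 4 were called lower under IFN-β, with *Degs1* at -0.32 (edgeR adjusted p = 4.6e-04). *Scd4* was counted 57 to 92 times in unstimulated libraries and 6 to 9 times after LPS.

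Of 8 tested genes for acetyl-CoA, malonyl-CoA and NADPH supply, LPS raised 2 and lowered 3, and IFN-β lowered 2, with list medians of -0.11 and -0.20 beside -0.04 and -0.02 for all genes. By library size alone the counts were 0 higher and 6 lower under LPS and 0 higher and 5 lower under IFN-β. *Acaca*, the acetyl-CoA carboxylase that makes malonyl-CoA, fell by 0.89 on the log2 scale under LPS (SE 0.08, edgeR adjusted p = 3.2e-06) and by 0.37 under IFN-β (SE 0.08, edgeR adjusted p = 0.00345), and *Mid1ip1*, which promotes carboxylase polymerisation, fell by 1.17 under LPS (SE 0.14). *Mlycd*, malonyl-CoA decarboxylase, was the lowest under IFN-β (-0.39, SE 0.11, edgeR adjusted p = 0.0125). *Acly*, which makes cytosolic acetyl-CoA from citrate, was at 0.15 under LPS (SE 0.07), not past the threshold, but was past it with the replicate block (edgeR adjusted p = 0.0452) and, with the opposite sign, by library size alone (-0.44, edgeR adjusted p = 7.4e-05). Under IFN-β it was at -0.13 (edgeR adjusted p = 0.163), or -0.44 by library size alone (edgeR adjusted p = 1.8e-04). The citrate carrier *Slc25a1* was higher under LPS by 0.56 (SE 0.09), which became -0.02 when libraries were scaled by size alone. The replicate block raised the IFN-β calls of this list to 5 (1 higher, 4 lower), with *Slc25a1*, *Me1* and *Mid1ip1* added.

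Among partners of the elongases in the elongation cycle (6 tested), LPS lowered 4 and raised 2 and IFN-β lowered 3 and raised 1, and by library size alone 4 and 5 were lower and none higher. The dehydratase *Hacd1* fell by 1.44 under LPS (SE 0.26), *Hacd3* by 1.15 under IFN-β (SE 0.08), and *Hacd4* was lower under LPS (-1.25, SE 0.23) but higher under IFN-β (0.60, SE 0.22, edgeR adjusted p = 0.0471), a call that was lost by library size alone (0.30, edgeR adjusted p = 0.205). *Hacd2* was higher under LPS (0.48, SE 0.07), but -0.10 with scaling by library size alone. Among 5 genes of cytochrome b5 and its reductases, which pass electrons to the desaturases, LPS lowered 3 and raised 2 and IFN-β lowered 2 and raised 1, and by library size alone 5 and 4 were lower and none higher. *Cyb5r1* fell 3.99-fold under LPS and 1.56-fold under IFN-β (SE of the log2 fold change 0.10 each), *Cyb5r3* was at 0.44 under LPS but -0.14 by library size alone, and *Cyb5r4* was at 0.32 under IFN-β and 0.01 by library size alone.

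The separate mitochondrial fatty acid synthesis route, which serves lipoic acid synthesis, had 5 tested genes. LPS raised 2 and lowered 1, and IFN-β lowered 1 (2 with the replicate block, *Ndufab1* added), with medians of 0.19 and -0.02. By library size alone 3 were lower and none higher under each stimulus. *Cbr4* was highest (0.58 under LPS, SE 0.13; 0.01 by library size alone), the acyl carrier *Ndufab1* lowest under LPS (-0.46, SE 0.08) and *Mecr* lowest under IFN-β (-0.55, SE 0.16). *Hsd17b8* was not found under that symbol.

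Of 16 tested regulators, the SREBP, LXR and PPAR genes and their partners, LPS lowered 9 and raised 3 and IFN-β lowered 6 and raised 3. With the replicate block these were 9 and 5 and then 8 and 4, and by library size alone 13 and 1 and then 11 and 1. *Srebf1*, which encodes SREBP-1, was at 71.6 ± 3.66 CPM in unstimulated DCs and 57.3 ± 2.86 after LPS (log2 -0.32, SE 0.07, edgeR adjusted p = 0.00174). Its IFN-β difference of -0.12 did not pass (edgeR adjusted p = 0.169), but was -0.43 by library size alone (edgeR adjusted p = 3.0e-04). *Nr1h3*, which encodes LXRα, rose by 1.91 under LPS (SE 0.20, edgeR adjusted p = 8.0e-06) and 1.09 under IFN-β (SE 0.20, edgeR adjusted p = 0.00108). It was at 9.15, 7.79 and 6.27 CPM in unstimulated, 33.9, 32.4 and 20.9 CPM in LPS and 19.1, 16.1 and 14.3 CPM in IFN-β libraries, so both stimulated groups lay above the unstimulated one. *Pparg*, a regulator of lipid storage, was lowest, falling by 2.37 under LPS (SE 0.21) and 0.92 under IFN-β (SE 0.19) on the log2 scale. *Rxra*, the shared partner of LXR and PPAR, fell by 1.17 and 0.61 (SE 0.10 each).

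Known LXR targets outside fatty acid synthesis were called higher in 2 of 6 and lower in 1 under LPS, and higher in 3 and lower in 1 under IFN-β, with medians of 0.15 and 0.23. *Mylip*, which encodes a ubiquitin ligase, rose by 1.90 under LPS (SE 0.10) and 0.63 under IFN-β (SE 0.10). The sterol exporter *Abcg1* rose by 0.75 under IFN-β (SE 0.14), while *Lpcat3* was lowest there (-0.18, SE 0.06) and *Pltp* lowest under LPS (-0.40, SE 0.17, edgeR adjusted p = 0.0579, or 2.4e-04 with the replicate block). *Abca1*, raised by 0.57 under LPS, was at -0.01 by library size alone, which gave 1 higher and 3 lower under LPS and 2 higher and 1 lower under IFN-β for the list.

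Sterol-regulated genes of cholesterol synthesis and uptake were mostly lower: of 9 tested, 8 fell and none rose under LPS, and 7 fell and none rose under IFN-β, with medians of -1.16 and -1.10. By library size alone 8 were lower under LPS and 9 under IFN-β, and none higher. *Sqle*, squalene epoxidase, was lowest under both (-2.63, SE 0.17 and -1.49, SE 0.16), at 85.2, 66.3 and 74.3 CPM in unstimulated, 14.0, 11.0 and 11.5 CPM in LPS and 34.0, 23.4 and 22.5 CPM in IFN-β libraries. The exception under LPS was *Idi1* (0.36, edgeR adjusted p = 0.111, or 0.0056 with the replicate block). Between the stimuli, 5 of the 9 were higher after IFN-β and none lower, and with the replicate block 7 were higher and 1 lower.

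For peroxisomal chain shortening, which trims very long and polyunsaturated chains, 7 genes were tested, and LPS lowered 5 and raised 1 while IFN-β lowered 3 and raised 1, with medians of -0.81 and -0.12. By library size alone 6 were lower under each stimulus, with 0 higher under LPS and 1 higher under IFN-β. The thiolase *Acaa1a* was higher under both (0.76, SE 0.08 and 0.90, SE 0.08; under LPS 0.18 and not past the threshold by library size alone, edgeR adjusted p = 0.0526) and the transporter *Abcd2* lower under both (-1.89, SE 0.16 and -0.95, SE 0.15). Over the 9 lists together, 52 of 66 tested genes were called under LPS (78.8%, beside 68.2% of all genes) and 35 under IFN-β (53.0%, beside 46.9% of all genes). With both directions counted together these shares were not far from the background, but the calls leaned lower. The lists were chosen with earlier results of these data known, so this lean describes them and is no test against the background. Under LPS 38 of the 66 were lower and 14 higher, where 35.4% of all genes were lower and 32.8% higher. Under IFN-β 26 of the 66 were lower and 9 higher, where 23.3% of all genes were lower and 23.6% higher. With the replicate block the calls were 58 (18 higher, 40 lower) under LPS and 45 (11 higher, 34 lower) under IFN-β. By library size alone these became 54 (2 higher, 52 lower) and 52 (4 higher, 48 lower), and 9 of the 52 LPS calls and 1 of the 35 IFN-β calls changed sign. In the direct comparison 36 list genes were called (54.5%, beside 49.1% of all genes), 26 higher and 10 lower after IFN-β, or 44 higher and 4 lower by library size alone. Of all genes, 25.8% were called higher and 23.3% lower in that comparison.

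**Figure D4:**
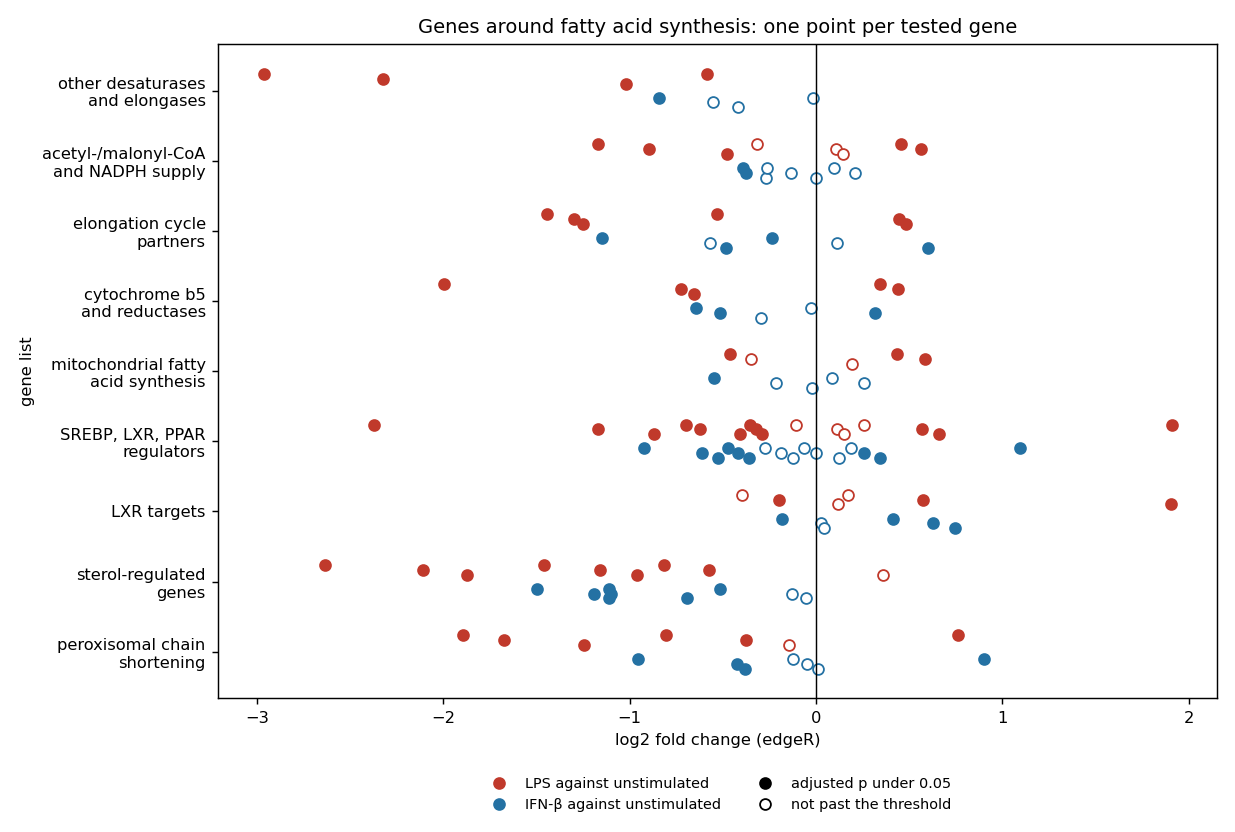
Log2 fold changes of the 66 tested genes of the 9 lists around fatty acid synthesis, a point per gene, red for LPS and blue for IFN-β against unstimulated DCs, filled where the edgeR adjusted p was under 0.05. Sterol-regulated genes lie left of 0 in 8 of 9 red points, precursor supply straddles 0, and *Nr1h3* and *Mylip* are the red points near 1.9; by library size alone 9 filled red points and 1 filled blue point change sign.

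For likeness of pattern, each tested gene was correlated with *Fasn*, *Scd2*, *Elovl2* and *Elovl6* over the 9 libraries on the log2(CPM + 0.5) scale. The 9 points fall into 3 treatment groups, so these values rank likeness only. *Tfdp2*, *Golm1* and *Prkar2a* were most like *Fasn* (Pearson r of 0.999, 0.998 and 0.998), and 1337 of 16259 genes had an r over 0.95 with it. *Gusb*, *Fam168a* and *Smpd2* were most like *Scd2* (0.996, 0.996 and 0.995). *Camk1d*, *Vdac1* and *Sqle* were most like *Elovl6* (0.997, 0.997 and 0.995), the last of them the sterol gene described above. *Asap3*, *Dgat2* and *Cwc15* were most like *Elovl2* (0.998, 0.998 and 0.997), and *Dgat2*, which completes triglyceride synthesis, was at 1.39 CPM in unstimulated DCs, 10.5 CPM after LPS and 2.65 CPM after IFN-β on average.

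Reads were counted without a stated strand setting, and the effect on the counts of bases shared with an overlapping gene was not tested. Exons of *Elovl1* share 53 bases with *Cdc20* on the other strand, those of *Elovl6* share 34 bases with the antisense *Gm35986*, and those of *Scd2* contain the 61-base *Mir5114*. The other 7 genes overlap no other gene's exons in GENCODE M21.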

How the data were processed

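RNA of DCs was isolated with TRIzol for 9 libraries, and ribosomal RNA was depleted during library preparation with a KAPA RNA HyperPrep kit. The submitters' processing notes name Trim Galore 0.6.0 and STAR 2.7.8a and the builds mm10 and GRCm38, whereas the paper's methods give a different STAR version. The authors deposited raw counts per gene, from the gene counting of STAR with GENCODE M20 annotation, in which a read that maps to several places is not counted. The strand setting is not given in the sources used here. Of 55471 genes, 3214 had no symbol.

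The counts were fitted in edgeR 4.0.16 (R 4.3.3) as in the study's methods, with TMM factors and a quasi-likelihood model of all 9 libraries in 3 groups. Those methods mention filtered counts but name no filter, and the default filter of edgeR on low counts was used here. As in those methods, adjustment was by Benjamini-Hochberg, here over the 16260 genes tested, with an adjusted p under 0.05 as a call. Groups came from the labels. The 10 genes and the 9 lists (78 genes, 66 tested) were chosen with earlier results of these data known. Named list genes are those with the highest and lowest log2 fold change under each stimulus, except that 1 gene the rule picks is not reported here, and any others named were chosen after their values were seen. Levels between genes were compared per kilobase of the union of exons in GENCODE M21 (GRCm38), and promoter windows came from RefSeq (GRCm38.p6). CPM and family shares were compared with two-sided exact permutation tests on log2(CPM + 0.5) or percent. Pooled *Elovl2* counts were compared with exact binomial intervals.

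The letters A, B and C occur in each group. Deviations from the group means correlated in every same-letter pair of libraries (r of 0.134 to 0.546 over 9 pairs), so by this check the letters pair the libraries. Pairs with different letters had r of -0.48 to 0.062 over 18 pairs. Deviations within a group cancel out, so these values follow in part from the same-letter ones and are no separate comparison. A fit with the letters as a replicate block is given where it changed a call of the 10 genes. It is also given where it moved a list's count by over 1.5 times or bears on a value printed for a named gene. Other list calls changed with it too, among them those of *Hacd1* under IFN-β and *Mecr* under LPS. Standard errors and adjusted p-values printed without mention of the block are from the fit without it. With the block the standard errors of the 10 genes were smaller, as for *Scd1* under IFN-β (0.05 rather than 0.14). Other alternatives were DESeq2 1.42.0, library size alone, upper-quartile factors, other filters, the 2 compared groups alone, other thresholds and leaving out each library. The edgeR fit was tested on simulated counts, for the LPS comparison.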

Additional observations from a re-analysis of the deposited data

How the results depend on the processing

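Of 477 recomputed fold changes of the 10 genes (30 results under up to 16 alternatives), 474 kept their direction and their side of the threshold and none reversed. The other 3 were those of *Elovl1* between IFN-β and LPS, which passed the threshold with library size alone, upper-quartile factors or the replicate block, and the cause was not tested. Leaving out each library in turn gave 10 calls under LPS, 10 under IFN-β and 9 between the stimuli each time, and the *Elovl1* difference between the stimuli then ranged from 0.09 to 0.16. Among all these, the *Elovl2* results against unstimulated libraries are no separate support, because it passed the filter only through the stimulated ones. With the replicate block all 10 genes were called in each of the 3 comparisons (9 between the stimuli without it), and the block changed no other call of the 10. Requiring a log2 fold change of at least 1 left 9, 7 and 8 of the 10 genes, and requiring 10 counts in every library removed *Elovl2* and left 9, 9 and 8. With that fold change, 20 rather than 52 list genes were called under LPS, 7 rather than 35 under IFN-β and 8 rather than 36 between the stimuli. The pseudocount mattered for the lowest genes on the scale of single libraries: the mean log2 difference of *Elovl2* under LPS was 3.47 with 0.5 CPM, 4.90 with 0.1 and 2.71 with 1, and that of *Elovl6* was -3.96, -4.70 and -3.42. Using the longest transcript in place of the union of exons raised the unstimulated level of *Elovl1* from 36.7 to 55.3 and of *Fads1* from 15.3 to 21.3 CPM per kilobase. The same change moved *Elovl5* from place 4 to place 2 and *Fads1* from place 8 to place 6 in the order of the 10 genes after LPS. Counts of 3 to 22 in the lowest group limited the precision of *Elovl2*, *Elovl6* and *Elovl7*.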
